A study of Mus musculus with 16 samples.

Results

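The mitochondrial ribosomal protein genes are nuclear genes, and they were taken here as all rows of the deposited tables whose symbol starts with Mrpl or Mrps followed by a digit, with pseudogene symbols left out. There were 77 of them among 23222 rows, and all 77 were found in the GENCODE M21 annotation. By the names in use for the mammalian mitochondrial ribosome, 50 of them encode proteins of the large subunit and 26 proteins of the small subunit. Mrps30 and Mrps18a are counted with the large subunit, where the proteins sit in spite of their names. The remaining one, Mrps36, encodes a component of the 2-oxoglutarate dehydrogenase complex and not of the ribosome. It was kept because the symbol rule takes it, and it enters the counts over 77.

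Mitochondria have a ribosome of their own, which translates the few proteins encoded in mitochondrial DNA, all of them subunits of the oxidative phosphorylation complexes. Its RNAs are transcribed in the organelle, but its proteins are made in the cytosol and imported, so the nucleus and the mitochondrion must supply parts of the same particle. Some of the proteins have homologues in bacterial ribosomes and others are found in mitochondria alone. In skeletal muscle, whose fibres depend on oxidative phosphorylation during sustained work, the genes are usually described as part of the mitochondrial biogenesis that follows endurance training.

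Bulk RNA-seq was made from myofibers, the multinucleated cells of muscle, after attached mononucleated cells had been taken off. The fibres came from the extensor digitorum longus of the lower hindlimb, which is made up mostly of fast fibres. All libraries came from male C57BL/6 mice, with 4 libraries in each of 4 groups. Old runners were 22 months old and had free use of a running wheel for 5 weeks, and old controls were of the same age without that treatment. Young runners were 4 months old and had the same 5 weeks with a wheel, and young controls were 4 months old without it. Since the labels leave it unsaid whether each library is a mouse of its own, p-values here reflect library-to-library spread, which may be technical. A library held 30696736 to 67428801 recovered reads, and every member had at least 435 reads in every library. Normalised reads below are the recovered read counts divided by a size factor, on 1 scale for the 16 libraries, and differences are on the authors' log2 scale.

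Fibre transcripts led the libraries: a list of 9 skeletal fibre genes summed to 5.09e+06 to 9.99e+06 normalised reads in each. Summed transcripts of several other cell types were far lower and were higher on average in runners. A list of 6 Schwann cell genes went the other way in old mice, with means of 497 in runners and 660 in controls. Sums of endothelial and of immune genes overlapped between runners and controls in old mice. In young mice the immune sums overlapped as well, whereas the endothelial list summed to 1377 to 5581 in runners, against 316 to 1023 in controls. A list of 9 genes of fibro-adipogenic cells, the connective tissue cells between fibres, had all 9 found and summed to 1957 to 3968 normalised reads in old runners, against 237 to 2025 in old controls, with Pdgfra at 0 in every old library. The same list summed to 4027 to 11988 in young runners, against 60.6 to 627 in young controls. Gsn had up to 4980 reads in a library, Dcn up to 2446 and Col3a1 up to 978. Any other gene of the list had at most 353. A list of 8 satellite cell genes summed to 23576 to 36131 in old runners, against 11260 to 22854 in old controls, and to 36731 to 47463 in young runners, against 9400 to 39230 in young controls. Most of that sum came from Myod1, with up to 44420 reads in a library, and Sdc4, with up to 8152, whereas Pax7, Calcr and Myf5 had at most 10, 23 and 247 reads. Calcr was at 0 in every old library and Pax7 in every old control. A list of 7 smooth muscle and pericyte genes summed to 710 to 3044 in young runners, against 52.3 to 524 in young controls, with up to 3177 reads of Rgs5 in a library and at most 270 of any other gene of the list. In old mice the sums of that list overlapped, with 670 to 3116 in runners and 284 to 1722 in controls. In bulk samples fewer fibre nuclei and less RNA of a gene per fibre cannot be told apart. The part of these transcripts in the member values below was not tested.

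Promoters of the members are described by their letters only. RefSeq windows on GRCm38.p6, from 250 bases before to 50 after a start, were found for 68 members (74 windows). The motif searched for the nuclear respiratory factor NRF1, on both strands, was GCGCA and GCGC with any single base between them, and it lay in 17.6% of member windows, 11.3% of windows of the genes tested in these data and 4.60% of all 32851 windows. The ETS core CCGGAAG, read by GABPA among other ETS factors, lay in 33.8% of member windows, 19.0% of windows of genes tested and 8.86% of all. The YY1 core AANATGGCG lay in 14.9% of member windows, 5.94% of windows of genes tested and 2.38% of all, whereas TATAAA lay in 6.76%, 6.93% and 13.6%. The E-box CACGTG lay in 9.46% of member windows, 10.7% of windows of genes tested and 7.15% of all. Those 7 member windows belonged to 5 members, because overlapping windows of Mrpl2 held the same site. Matches of different motifs may overlap, and nothing in these data tests what binds there. The windows of nuclear oxidative phosphorylation genes held the NRF1 core in 24.7% and the ETS core in 23.3%, and those of cytosolic ribosomal protein genes held them in 6.76% and 35.1%.

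The 150 bases before the RefSeq start are printed for 4 of the members named below, 5′ to 3′, with capitals marking the NRF1 core. They lie at chr2:24975099-24975248 on the minus strand (Mrpl41), chr1:37890327-37890476 on the plus strand (Mrpl30), chr3:94443186-94443335 on the plus strand (Mrpl9) and chr1:79775868-79776017 on the plus strand (Mrpl44) in GRCm38.p6.
Mrpl41: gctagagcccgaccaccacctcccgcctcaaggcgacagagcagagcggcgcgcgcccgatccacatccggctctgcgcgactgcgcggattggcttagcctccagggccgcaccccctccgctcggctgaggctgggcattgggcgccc
Mrpl30: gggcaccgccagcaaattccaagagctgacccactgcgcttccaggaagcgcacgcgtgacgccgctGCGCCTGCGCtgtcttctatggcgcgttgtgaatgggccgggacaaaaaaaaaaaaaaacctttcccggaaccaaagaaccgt
Mrpl9: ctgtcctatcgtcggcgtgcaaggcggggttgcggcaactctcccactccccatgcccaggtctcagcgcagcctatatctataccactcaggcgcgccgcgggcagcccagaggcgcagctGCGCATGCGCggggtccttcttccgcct
Mrpl44: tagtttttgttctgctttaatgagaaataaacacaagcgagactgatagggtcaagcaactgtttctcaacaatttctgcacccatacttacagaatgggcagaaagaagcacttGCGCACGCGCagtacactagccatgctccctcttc
The Mrpl41 window held none of the motifs searched. The windows of the other printed members each held 1 NRF1 core, in that of Mrpl30 as read on the opposite strand. The core starts 83 bases before the start of Mrpl30, 28 before that of Mrpl9 and 35 before that of Mrpl44. The 4 printed members were picked and do not stand for the rest: the NRF1 core lay in windows of 13 of the 68 members. The window of Mrpl11, which is also named below and is not printed, held none of the motifs searched.

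Levels differed by more than an order of magnitude between members. Per kb of exon, the mean level over 16 libraries ran between 107 normalised reads for Mrps35, a mitochondria-specific protein of the small subunit, and 5928 for Mrps28, a small subunit protein, with a median of 749. The median was 1036 over the 50 large subunit genes and 634 over the 26 small subunit genes. Within the large subunit it was 780 for the 30 genes with a bacterial homologue and 1141 for the 20 mitochondria-specific ones. Within the small subunit it was 758 for 16 genes with a bacterial homologue and 525 for 10 mitochondria-specific ones. On the same scale the median was 9398 for the nuclear genes of oxidative phosphorylation, 859 for cytosolic ribosomal proteins and 227 for all genes tested.

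**Figure D1:**
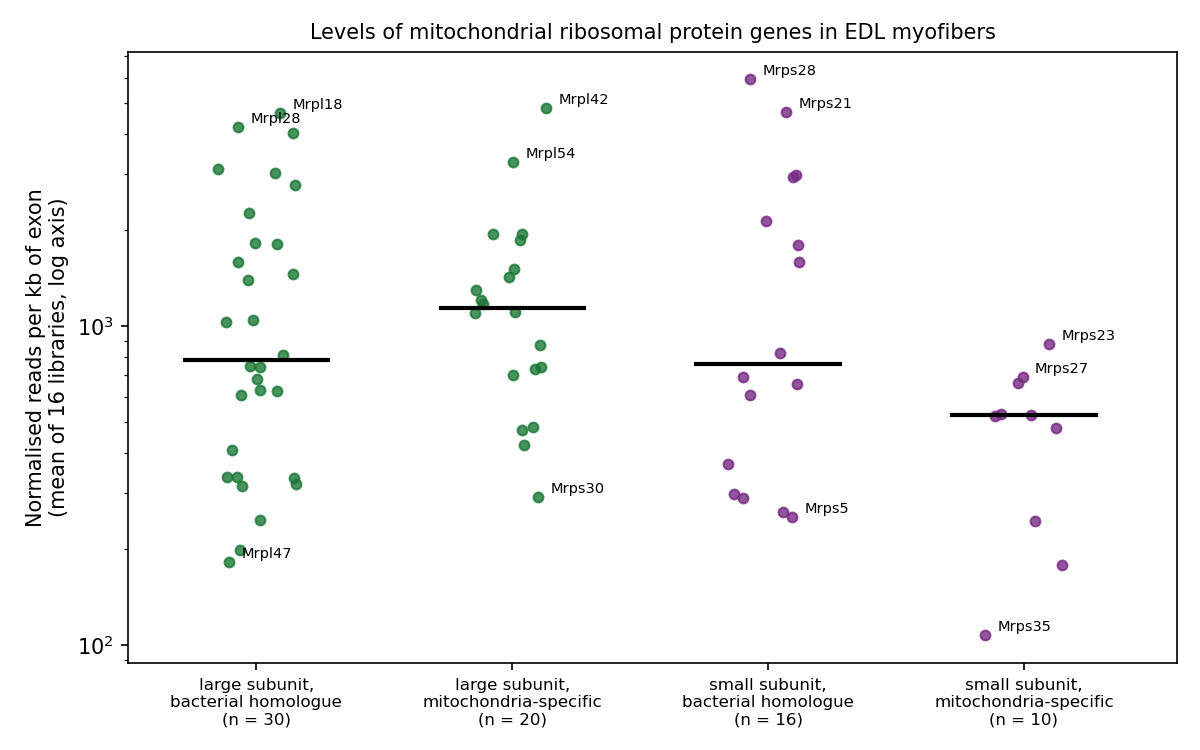
Level of each member, in normalised reads per kb of exon (mean of 16 libraries, log axis), by subunit and by whether a bacterial homologue exists. Points are genes, bars are class medians (780, 1141, 758 and 525), and the 2 highest and the lowest gene of each class are named.

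The 10 highest members per kb of exon were Mrps28, Mrpl42, Mrps21, Mrpl18, Mrpl28, Mrpl2, Mrpl54, Mrpl14, Mrpl34 and Mrps24. Of these, 7 were also among the 10 highest per kb of transcript. The extremes depended on the length used. Per kb of transcript the highest member was Mrpl42 at 26764 normalised reads, with Mrps28 at 5928, and the lowest was Mrps25 at 193. Mrpl18, a large subunit protein, shares exons with Tcp1 on the other strand, Mrpl14 with Tmem63b, and Mrps24 with Urgcp on its own strand. The library procedure keeps no strand, so reads of such pairs cannot be told apart by strand. The coefficient of variation within groups had a median of 20.7% over members, between 9.95% for Mrpl49 and 30.5% for Mrps2.

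The first question of the design is what wheel running does in old muscle. In old runners most members stood slightly lower than in old controls: 61 of 77 had a lower mean and 16 a higher one, with a median difference of -0.11, against 0.03 over all genes tested, of which 54.8% were higher. Of 77 cytosolic ribosomal protein genes tested 62 were lower and 15 higher, with a median of -0.16. Of 79 nuclear oxidative phosphorylation genes 50 were lower and 29 higher, with a median of -0.07. No single member passed the test. With limma and Benjamini-Hochberg adjustment over all genes, 0 of 77 members were called at an adjusted p under 0.05, where the background was 0.128% of 9379 genes, and at an unadjusted p under 0.05 there were 0 higher and 5 lower members, against 10.3% and 7.04% of all genes. With voom on the recovered reads 0 members were called too. In 4 members, Mrpl9, Mrpl21, Mrpl24 and Mrpl41, every old runner lay below every old control on the deposited scale, and in 0 members above; over all genes 5.29% were lower and 4.86% higher without overlap. Without old control library Oc1, 1 member was called, Mrpl41 (limma adjusted p = 0.0332). The median of the members was -0.19 without old runner library O1ex, -0.06 without O3ex and -0.05 without old control library Oc2.

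Mrpl41, a mitochondria-specific protein of the large subunit, had 1195, 1252, 1349 and 892 normalised reads in old runners, against 1554, 2191, 2031 and 2309.8 in old controls. The highest old runner lay below the lowest old control. The log2 difference was -0.62 ± 0.15 (SE, n = 4 each; limma adjusted p = 0.113), with a 95% interval of -0.96 to -0.28. Mrpl41 shares no exon with another annotated gene.

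Mrpl9, the homologue of bacterial L9, had 1515, 1416, 1403 and 1456 normalised reads in old runners, against 1869, 2167, 2341 and 1868 in old controls. The old runners were close together and all below the controls. On the log2 scale the difference was -0.41 ± 0.12 (SE, n = 4 each; limma adjusted p = 0.151). Its exons overlap those of Oaz3 on the other strand, which averaged 3 reads.

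Mrpl11, at the base of the stalk that recruits translation factors, had 2540.5, 1958, 2056 and 2006 normalised reads in old runners, against 2334, 3506, 3612 and 2658 in old controls. The groups overlapped, because 1 runner lay above the lowest control. The groups differed by a log2 value of -0.41 ± 0.16 (SE, n = 4 each; limma adjusted p = 0.213). The other stalk proteins, Mrpl12 and Mrpl10, differed by -0.13 ± 0.17 and -0.03 ± 0.14 on the same scale, and neither passed.

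On the higher side in old runners stood Mrps5, Mrpl35 and Mrpl38, and all 3 pairs of groups overlapped. Mrps5, a small subunit protein near the decoding centre, had 2629, 1717, 1633 and 1878 normalised reads in old runners, against 515, 1965, 1629 and 1405 in old controls; 1 control was far below the rest. Mrpl35, a homologue of bacterial L35, had 4359, 3437, 2555 and 3609 in old runners, against 2902, 2956, 3207 and 2901 in old controls. Mrpl38, which is mitochondria-specific, had 4474, 2925, 2367 and 3198 in old runners, against 1996, 3676, 2449 and 2577 in old controls. The log2 differences were 0.49 ± 0.28, 0.18 ± 0.15 and 0.25 ± 0.20 (SE, n = 4 each; limma adjusted p = 0.387, 0.557 and 0.564).

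Further lower members by p in old runners were Mrpl21, Mrpl33, Mrps6, Mrps21 and Mrps33, with log2 differences between -0.35 and -0.27, and further higher ones Mrpl16, Mrpl39, Mrps15, Mrpl15 and Mrpl55, with differences between 0.09 and 0.14. The direction of Mrpl15 turned when the trend on exon length was removed (-0.04), and those of Mrpl15 and Mrpl55 turned without old runner library O1ex (-0.05 and -0.04). By role, the polypeptide exit site (8 members, Mrpl45, Mrpl44 and Mrpl23 among them) had 2 higher and 6 lower members with a median of -0.12, and Mrpl44, an exit-site protein related to ribonuclease III, differed by -0.13 ± 0.16. Mrpl58, the rescue factor that frees stalled ribosomes, differed by -0.10 ± 0.16, Mrps12 of the decoding site by -0.16 ± 0.14, Mrps7 of the small subunit head by -0.08 ± 0.14 and Mrps34 of the small subunit by -0.21 ± 0.13. The 3 relatives of bacterial S18 differed by -0.12 ± 0.11 for Mrps18a, -0.05 ± 0.13 for Mrps18b and -0.21 ± 0.17 for Mrps18c, and Mrps30 by -0.06 ± 0.16. Mrps36 differed by -0.06 ± 0.16. None of these passed.

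**Figure D2:**
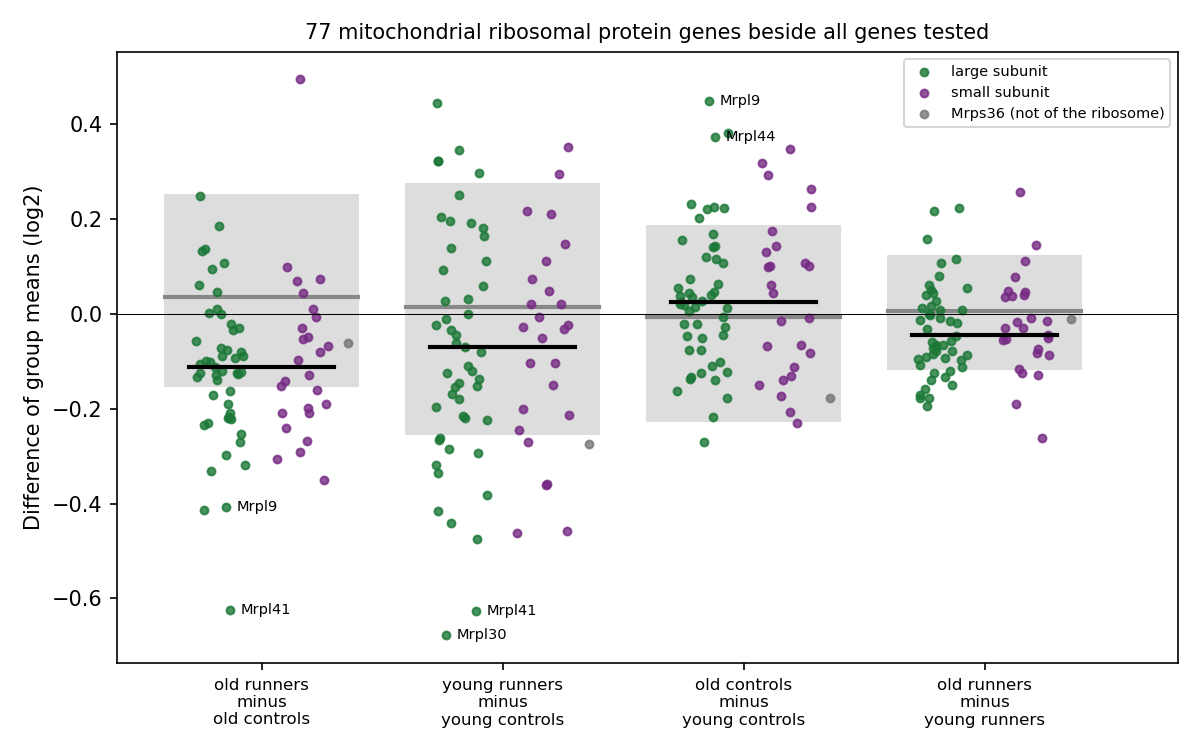
Differences of group means (log2) of the 77 members in the 4 comparisons, with large and small subunit genes apart and the 2 members with the smallest p named in the first 3 comparisons. Black bars are medians of members (-0.11, -0.07, 0.03 and -0.04), grey bars medians of all genes tested, and grey bands the middle 50% of those genes.

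In young mice most members were again lower with running, by less in the median. Of the 77 members 50 were lower and 27 higher in young runners than in young controls, with a median difference of -0.07, against 0.01 over all genes tested, of which 51.5% were higher. Of 78 cytosolic ribosomal protein genes tested 68 were lower and 10 higher, with a median of -0.22. Of 79 nuclear oxidative phosphorylation genes 47 were lower and 32 higher, with a median of -0.06. By limma with Benjamini-Hochberg adjustment 0 members were called, where the background was 0.762% of 10624 genes, and voom called 0 as well. At an unadjusted p under 0.05, 1 member was higher (Mrpl4) and 3 were lower (Mrpl41, Mrpl30 and Mrps33), against 8.85% and 8.51% of all genes. In 1 member, Mrpl41, all young runners were below all young controls, where 5.77% of all genes were lower and 5.71% higher without overlap. The median of the members was 0.03 without young control library Yc4, -0.03 without Yc8 and -0.01 without young runner library Y4ex. It was -0.16 without young control library Yc5, -0.13 without Yc7 and -0.18 without young runner library Y3ex.

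Mrpl41 had 1832, 1028, 1484 and 1313 normalised reads in young runners, against 2902, 1852, 2054 and 2280.5 in young controls. The highest young runner and the lowest young control were nearly equal. The log2 difference was -0.63 ± 0.20 (SE, n = 4 each; limma adjusted p = 0.163), with a 95% interval of -1.07 to -0.18.

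Mrpl30, a homologue of bacterial L30, had 5424, 3772, 5784 and 3797 normalised reads in young runners, against 10836, 5277, 6868 and 7911 in young controls. The groups overlapped, with the highest control far above the others. On the log2 scale the difference was -0.68 ± 0.23 (SE, n = 4 each; limma adjusted p = 0.187), and in old mice it was -0.25 ± 0.14. Mrps33, a mitochondria-specific protein of the small subunit, had 999, 772, 1176 and 875 normalised reads in young runners, against 1727, 1073, 1127 and 1649 in young controls, and the groups overlapped. The groups differed by a log2 value of -0.46 ± 0.20 (SE, n = 4 each; limma adjusted p = 0.279).

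Mrpl4, a large subunit protein that lines the exit tunnel, had 4566, 4234, 5836 and 3301 normalised reads in young runners, against 3124, 3190.1, 2975 and 3399 in young controls. Only 1 young runner lay within the range of the young controls. The log2 difference was 0.44 ± 0.18 (SE, n = 4 each; limma adjusted p = 0.233). Mrpl17, at the exit site, had 3097, 2525, 2611 and 2253 in young runners, against 1953, 1874, 1863 and 2531 in young controls. Mrps31, a mitochondria-specific small subunit protein, had 1662, 1730.3, 1666 and 1547 in young runners, against 1711, 1065, 976 and 1353 in young controls. Both pairs of groups overlapped, with log2 differences of 0.32 ± 0.16 and 0.35 ± 0.18 (SE, n = 4 each; limma adjusted p = 0.34 and 0.35).

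Among the other members by p in young mice, Mrpl49, Mrpl11, Mrpl21, Mrps14 and Mrpl18 had lower means in young runners, with log2 differences between -0.47 and -0.34. Mrps5, Mrpl44, Mrpl38, Mrpl19 and Mrpl15 had higher means, with differences of 0.25 to 0.34. The stalk proteins Mrpl12 and Mrpl10 differed by -0.02 ± 0.21 and 0.16 ± 0.17, the exit-site proteins Mrpl45 and Mrpl23 by 0.19 ± 0.16 and -0.15 ± 0.22, and Mrpl58 by -0.15 ± 0.22. In the small subunit Mrps12 differed by -0.03 ± 0.21, Mrps7 by -0.21 ± 0.18, Mrps34 by -0.10 ± 0.20, Mrps18b by 0.07 ± 0.17 and Mrps18c by -0.20 ± 0.20. Mrps18a and Mrps30 of the large subunit differed by -0.29 ± 0.17 and -0.14 ± 0.22, and Mrps36 by -0.28 ± 0.20. None of these passed.

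**Figure D3:**
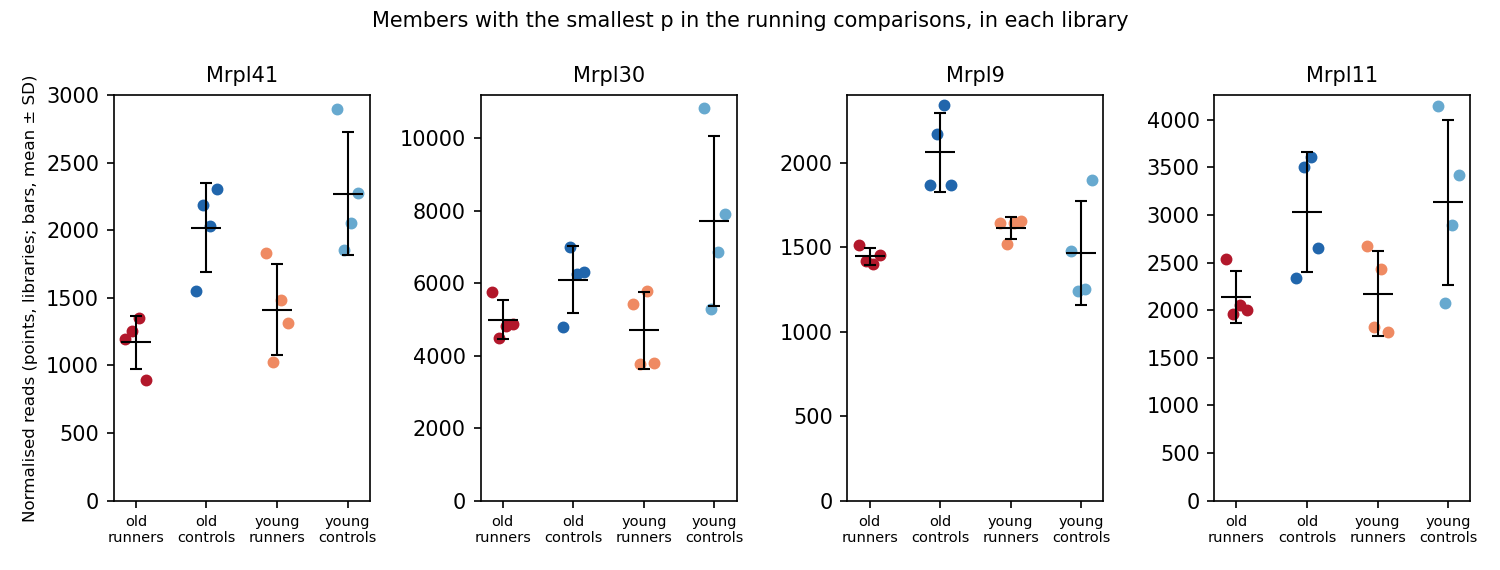
Normalised reads of Mrpl41, Mrpl30, Mrpl9 and Mrpl11 in each of the 16 libraries, by group (4 points each; bars, mean ± SD). Mrpl41 lies between 892 and 1349 in old runners and between 1554 and 2310 in old controls, and Mrpl9 between 1517 and 1654 in young runners and between 1238 and 1895 in young controls.

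The 2 running comparisons share no library, so their directions can be set side by side. Of the 77 members 47 (61.0%) were lower at both ages, 13 were higher at both, 14 were lower in old and higher in young mice, and 3 the reverse. Over 9356 genes tested at both ages 30.4% were lower at both and 38.5% higher at both. The difference between the ages was tested with an interaction term, in which a negative value means a lower difference with running in old than in young mice. The old and young tables were transformed apart, with floors of 7.69 and 6.73 on the log2 scale. The same ratio of reads can therefore give log2 differences of unlike size in them, and the interaction carries this. The voom fit used recovered reads on 1 scale. Of the members 34 had a higher and 43 a lower value, where 53.4% of all genes were higher. By limma 0 members were called for it, where the background was 0% of 9356 genes, and 1 member had an unadjusted p under 0.05, against 3.40% of genes higher and 2.85% lower; voom called 0 members. That member was Mrpl9, with a difference of -0.41 with running in old mice and of 0.14 ± 0.17 in young mice and an interaction of -0.54 ± 0.19 (SE; limma adjusted p = 0.711). Next came Mrpl44, at -0.38 ± 0.21, and Mrpl4, at -0.38 ± 0.23, neither of which passed.

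**Figure D4:**
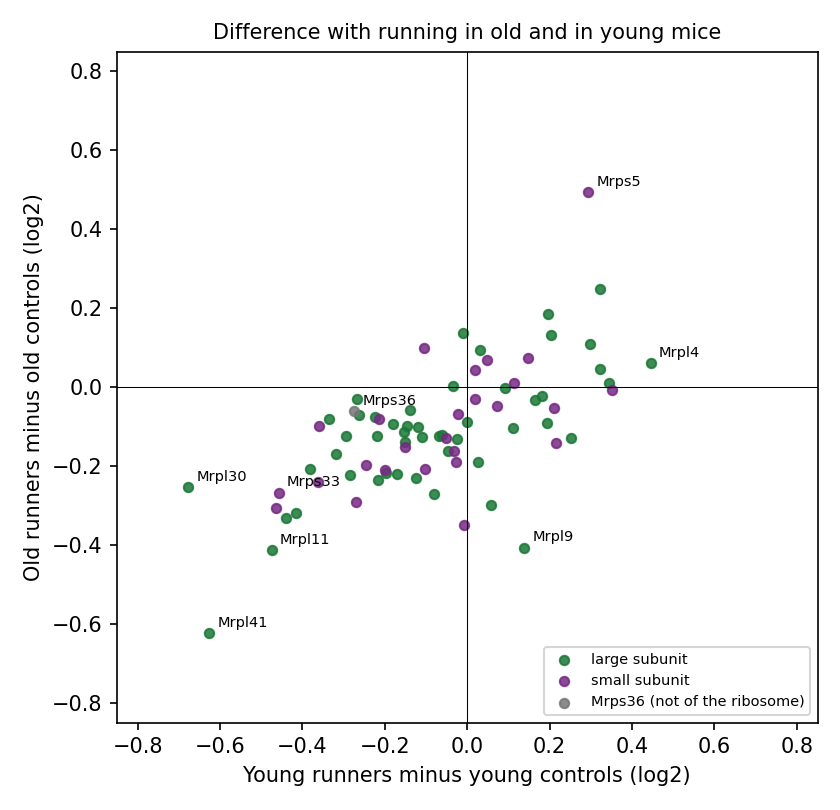
Difference with running (log2) of each member in old mice (vertical axis) against young mice (horizontal axis). 47 of 77 members lie in the lower left, Mrpl41 is low on both axes, and Mrpl9 is low on the vertical axis alone.

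A model of the mean effect of running over both ages, added after the separate comparisons had been seen, draws on all 16 libraries. It averages differences from the same 2 tables with unlike floors. In it 24 members were higher and 53 lower in runners, where 54.9% of all genes were higher. It called 928 of 9356 genes (9.92%), 5.07% higher and 4.85% lower in runners, and 2 of 77 members, both lower, Mrpl41 and Mrpl30. That share of members is below the background. Mrpl41 had a mean log2 difference of -0.63 ± 0.13 (SE; limma adjusted p = 0.00768), and was lower in runners at each age. It was also called with each of 16 libraries left out in turn and in all 9 other settings run, which reuse the same libraries. Its log2 difference ran from -0.685 to -0.563 with a library left out and from -0.742 to -0.471 in the other settings. Its mean of normalised reads in old runners was 0.580 of that in old controls, and its mean in young runners 0.622 of that in young controls. Mrpl30 had -0.47 ± 0.14 (SE; limma adjusted p = 0.0452), a call that was lost in 12 of 16 fits with a library left out and kept without Oc1, Yc5, Y1ex or Y3ex. The Mrpl30 call was also lost in 3 of the 9 other settings. Mrpl11 (-0.44 ± 0.14), Mrps33 (-0.36 ± 0.12) and Mrpl21 (-0.37 ± 0.13) followed with adjusted p of 0.0522, 0.055 and 0.0727 in limma. At an unadjusted p under 0.05 there were 2 higher members, Mrps5 and Mrpl4, and 12 lower ones, against 16.2% and 12.5% of all genes.

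Other genes of the same pathway were taken from lists chosen with earlier results of these data known. Of 5 mitochondrial ribosomal proteins that carry other names, the averaged model called Chchd1, a small subunit protein, lower and Ptcd3, a small subunit protein of the pentatricopeptide repeat family, higher in runners, where 9.92% of all genes were called. Chchd1 averaged 2964 ± 348 normalised reads in old runners and 4836 ± 842 in old controls, and 3361 ± 724 in young runners and 5837 ± 2132 in young controls (SD, n = 4 each), with a log2 difference of -0.67 (limma adjusted p = 0.0191). Ptcd3 averaged 3756 ± 392 in old runners and 3399 ± 791 in old controls, and 3963 ± 294 in young runners and 2340 ± 565 in young controls, with a difference of 0.45 (limma adjusted p = 0.0320). In young mice alone its difference was 0.74 (limma adjusted p = 0.0853), and the interaction with age did not pass (limma adjusted p = 0.788).

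Of 26 assembly factors 16 had higher and 10 lower means in runners in the averaged model, with a median of 0.04, against 0.04 over all genes. Beside a background of 4.85% of genes called lower and 5.07% higher, 4 of the 26 were called lower and 0 higher: Mterf3, which takes part in large subunit assembly, at -0.57 (limma adjusted p = 0.00443), Trmt61b, a methyltransferase of mitochondrial RNA, at -0.47, Malsu1, which keeps the subunits apart, at -0.38, and Fastkd2, which binds the large subunit RNA, at -0.38. Beside the 9.92% of all genes called, 1 of 15 translation factors tested was called, Gfm2, which recycles ribosomes, higher by 0.39 (limma adjusted p = 0.0153). Of 17 mitochondrial tRNA synthetases 1 was called, Iars2, higher by 0.49. Both of these counts are below that background. In the separate comparisons 0 genes of these lists were called in limma at either age. The 2 ribosomal RNAs of the mitochondrion differed with running by 0.20 and 0.28 in old mice and by 0.70 and 0.91 in young mice, with smallest adjusted p of 0.522 and 0.197. Of the 10 mitochondrially encoded protein genes tested in old mice 6 were higher and 4 lower in runners, and of 11 tested in young mice 2 were higher and 9 lower, with 0 called at either age.

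The second question is what age does. In the absence of running the members were balanced: 44 were higher and 33 lower in old controls than in young controls, with a median difference of 0.03, against -0.01 over all genes, of which 49.3% were higher. By limma 0 members were called, where the background was 0.112% of 9831 genes, and voom called 0. At an unadjusted p under 0.05 2 members were higher, Mrpl9 and Mrpl44, and 0 lower, against 5.43% and 5.75% of all genes. In 3 members, Mrpl4, Mrpl44 and Mrps35, all old controls lay above all young controls on the deposited scale, where 4.16% of all genes were higher and 2.84% lower without overlap.

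Mrpl9 had 1869, 2167, 2341 and 1868 normalised reads in old controls, against 1477, 1238, 1252 and 1895 in young controls, and 1 young control reached the range of the old. On the log2 scale the difference was 0.45 ± 0.17 (SE, n = 4 each; limma adjusted p = 0.337). The old controls used here are the same libraries that stood above the old runners. Mrpl44 had 1740.3, 2141, 2020.2 and 2251 in old controls, against 1739.6, 1392, 1334 and 1662 in young controls, with the lowest old and the highest young control nearly equal and a log2 difference of 0.37 ± 0.15 (SE, n = 4 each; limma adjusted p = 0.391). Its exons overlap those of Wdfy1 on the other strand. Mrps35 had 899.7, 1484, 836 and 918 in old controls, against 847, 763, 724 and 744 in young controls. A single old control lay far above the rest, and the lowest old control, which lay above the young controls on the deposited scale of the table, was just below the highest young control in normalised reads.

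On the lower side in old controls, Mrps15, which is homologous to bacterial S15, had 3025, 3849, 3070.4 and 2992 normalised reads in old controls, against 5178, 3442, 3806 and 3384 in young controls. Mrpl30 had 4793, 7004, 6259.5 and 6322 in old controls, against 10836, 5277, 6868 and 7911 in young controls. Mrpl52, a mitochondria-specific large subunit protein, had 911, 1028, 976 and 770.3 in old controls, against 1136, 828, 1369 and 1256 in young controls. All 3 pairs overlapped and the log2 differences were -0.23 ± 0.17, -0.27 ± 0.21 and -0.22 ± 0.17 (SE, n = 4 each), with no limma adjusted p below 0.648. Mrps31, Mrps6, Mrpl19, Mrpl4 and Mrps25 were next on the higher side, with differences of 0.22 to 0.38, and Mrps24, Mrps33, Mrps36, Mrpl42 and Mrps18a on the lower side, with -0.21 to -0.13. The 8 exit-site members were all higher in old controls, by a median of 0.12, and 1 of them, Mrpl44, had an unadjusted p under 0.05. In old runners against young runners 3 of the 8 were higher and 5 lower, with a median of -0.03. The 8 genes share libraries, so they are not 8 separate observations. Of the members named for their roles, the stalk, rescue, small subunit and S18-related genes and Mrps30 differed by between -0.13 (Mrps18a) and 0.14 (Mrps12), Mrpl45 by 0.22 ± 0.16 and Mrpl23 by 0.04 ± 0.20. The median of the members turned negative without old control library Oc2 (-0.05), young control library Yc5 (-0.04) or Yc7 (-0.03).

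Among runners most members had slightly lower means in the old. Of 77 members 25 were higher and 52 lower in old runners than in young runners, with a median difference of -0.04, against 0.00 over all genes, of which 51.3% were higher. By limma 0 members were called, where the background was 0.0213% of 9387 genes, and voom called 0. At an unadjusted p under 0.05 there were 0 members in either direction, against 2.41% of all genes higher and 2.50% lower, and in 0 members the groups did not overlap, against 1.83% of genes higher and 1.54% lower. The median turned positive without old runner library O3ex (0.02) or young runner library Y3ex (0.04), and with library weights (0.02). The 95% interval of the difference lay within 2-fold for all 77 members and within 1.5-fold for 59, on the log2 of recovered reads.

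Mrpl50, a mitochondria-specific large subunit protein, had 3988, 3808, 4238 and 3876 normalised reads in old runners, against 4075, 2979, 3114 and 3375 in young runners. Mrpl49, of the same class, had 1342, 1573, 1330.04 and 1338 in old runners, against 992, 1127, 1406 and 1118 in young runners. Mrps27, a pentatricopeptide repeat protein of the small subunit, had 2086, 1589, 1185 and 1670.2 in old runners, against 1086, 1548, 1167 and 1403 in young runners. All 3 pairs overlapped, and the log2 differences were 0.22 ± 0.12, 0.22 ± 0.13 and 0.26 ± 0.16 (SE, n = 4 each; limma adjusted p = 0.988 for each).

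On the lower side, Mrpl3, a homologue of bacterial L3, had 2034, 2153, 2041 and 1769 normalised reads in old runners, against 2226, 2584, 2283 and 2067 in young runners. Mrps24, a small subunit protein, had 4662, 2795, 3090.3 and 3445 in old runners, against 4205, 3801, 6292 and 3138 in young runners. Mrpl41 completed the 3 with the values given above. All 3 pairs overlapped, and the log2 differences were -0.16 ± 0.12, -0.26 ± 0.21 and -0.19 ± 0.16 (SE, n = 4 each), none of which passed. Mrpl9 was next, at -0.12 ± 0.11. Its old runners lay just below its young runners in normalised reads, and overlapped them on the deposited scale. The members named for their roles differed by between -0.09 (Mrpl12) and 0.06 (Mrps30). A model of the mean difference with age over runners and controls, also added after the separate comparisons, called 67 of 9203 genes (0.728%) and 0 members.

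Members are short genes, and length was measured beside each difference. Their median exon length was 2533 bases, against 4503 for all genes tested, and 43 of 77 fell among the 2304 shortest of the genes tested in old mice with running, which were split by length into 4 equal parts. In the shortest part the median difference in old runners was -0.15 for members and -0.09 for all genes, and in the next part -0.11 for 18 members and 0.01 for all genes. In the third part it was -0.06 for 9 members and 0.09 for all genes, and in the longest -0.05 for 7 members and 0.17 for all genes. In young runners the shortest part had medians of -0.10 for 43 members and -0.07 for 2606 genes, and the longest -0.02 for 7 members and 0.05 for all genes. Across the 77 members the rank correlation of difference and exon length was 0.31 in old mice and 0.24 in young mice, and across all genes 0.34 and 0.12. With transcript length it was 0.34 in old and 0.45 in young mice over the members, and 0.43 and 0.20 over all genes. For age in controls it was 0.38 over the members and -0.22 over all genes, and for age in runners 0.11 and -0.03. With the mean level in reads per kb of exon it was -0.22 in old and -0.29 in young mice with running over the members, and -0.09 and 0.09 over all genes. These are descriptions across genes of the same libraries. When the trend on exon length was removed from each library, the median of the members was -0.07 in old and -0.06 in young runners.

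The libraries themselves differed in the same respect. The mean deviation of the members from their own averages was highest in Yc4 (young control) at 0.33 and Oc2 (old control) at 0.29, and lowest in O3ex (old runner) at -0.26 and Y4ex (young runner) at -0.24, on the log2 scale. In Oc2, 74 of 77 members were above their own average, and in O3ex 3 were. The slope of all genes on exon length, in log2 per 10-fold length, was -0.86 in Yc4 and -0.76 in Oc2, and 0.39 in O3ex and 0.45 in Y4ex. By group the slope averaged 0.19 ± 0.27 in old runners and -0.34 ± 0.33 in old controls (SD, n = 4 each). It averaged 0.18 ± 0.42 in young runners and -0.03 ± 0.60 in young controls. The mean of the members averaged -0.08 ± 0.19 in old runners and 0.06 ± 0.16 in old controls, and -0.03 ± 0.20 in young runners and 0.04 ± 0.26 in young controls (SD, n = 4 each). All pairs of groups overlapped in it. The members took 0.415% ± 0.031 of all reads in old runners and 0.488% ± 0.052 in old controls, and 0.434% ± 0.051 in young runners and 0.502% ± 0.100 in young controls (SD, n = 4 each).

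**Figure D5:**
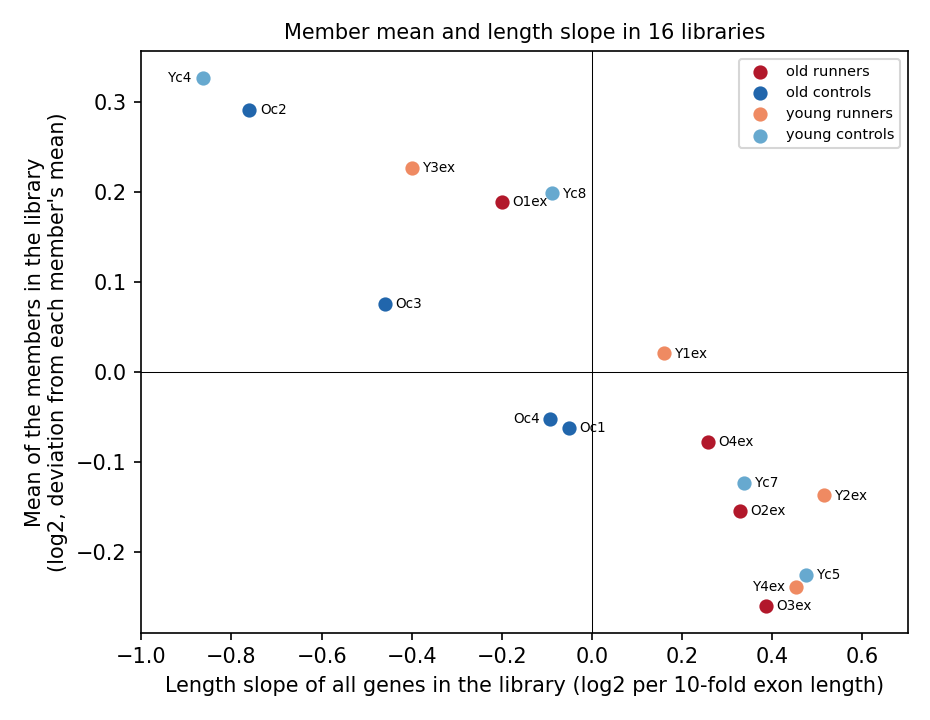
Mean deviation of the 77 members in each of 16 libraries (log2, vertical axis) against the slope of all genes on exon length in that library (log2 per 10-fold length, horizontal axis), coloured by group. Libraries of every group lie above and below 0 on the vertical axis, and Yc4 and Oc2, at the top left, have slopes of -0.86 and -0.76.

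The intervals bounded most differences within 2-fold, and fewer within 1.5-fold. On the log2 of recovered reads the 95% interval of the running effect lay within 2-fold for 75 of 77 members in old mice, the exceptions being Mrpl41 and Mrps5, and for 71 of 77 in young mice. For age it lay within 2-fold for 74 of 77 in controls. Within 1.5-fold it lay for 38 of 77 members in old mice and 24 in young mice with running. For age in controls that count was 38.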

How the data were processed

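RNA-seq of 16 libraries was analysed. The submitters' processing notes name Trim Galore, STAR, featureCounts of Subread, DESeq2 and the build mm10, none with a version. The authors deposited variance-stabilised log2 values in 4 tables of 8 libraries, each with a floor of its own (from the values). Inverting the transformation gave whole reads in all values within 0.02, which were divided by median-of-ratios size factors over the 16 libraries (normalised reads).

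Genes at least 1 above the floor of a table in at least 4 libraries were tested with limma 3.58.1 (R 4.3.3, variance trend, 2-sided) on the deposited log2 values within each table, with Benjamini-Hochberg adjustment over all genes and a threshold of 0.05. The script was tested on simulated data. The interaction and averaged models joined tables that share no library; the averaged models were added after the data were seen. Alternatives were no variance trend, other filters, other scalings, removal of the length trend, library weights, voom on recovered reads, a replicate block for the numbered runners, and each library left out.

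The members and gene lists were chosen with earlier results of these data known. Named members are the 8 with the smallest p in each direction, the 10 highest per kb of exon and 15 set by role; the 3 with the smallest p in each direction are given by library. Promoter windows are from RefSeq. Figures were drawn with matplotlib 3.10.9 under Python 3.11.15.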

Additional observations from a re-analysis of the deposited data

Results flagged for a closer look

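In 84 groups of 4 libraries, which are the 4 groups for each of 20 members given by library and for the mean of all members, a library was marked where its gap to the nearest other library was a larger part of the range of the group than Dixon's 95% critical value; chance marks about 1 in 20 such groups. Values are normalised reads, and no cause was tested. Among old runners, library O1ex stood apart high in Mrpl11 (2540.5) and in Mrpl44 (2553.9), and library O2ex stood apart high in Mrpl49 (1573.2). Among old controls, library Oc2 stood apart high in Mrpl4 (4084.9), in Mrps15 (3848.9) and in Mrps35 (1483.7). Among young runners, library Y2ex stood apart low in Mrpl9 (1517.4) and library Y3ex high in Mrps15 (5590.6). Among young controls, library Yc8 stood apart high in Mrpl17 (2530.9).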

How the results depend on the processing

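Genes called by limma in old mice with running (12) were 4 without the variance trend, 27 with the filter of 2, 5 with the length trend removed, 688 with library weights, 23 with median centring, 7 without a filter, 24 with quantile scaling, 3 with voom, and 1 to 295 with a library left out. In young mice (81) they were 47 without the trend, 155 with the length trend removed, 1394 with weights, 143 with centring, 24 without a filter, 228 with quantile scaling, 13 with voom, and 0 to 181 with a library left out. With age in controls (11) they were 24 with the length trend removed, 461 with weights, 3 without a filter, 28 with quantile scaling, 3 with voom, and 3 to 52 with a library left out. With age in runners (2) they were 7 with weights and 0 to 3 with a library left out. The interaction (0) gave 27 with weights and 0 to 5 with a library left out. Running averaged over both ages (928) gave 2544 with weights and 368 to 1281 with a library left out. Age averaged (67) gave 41 with the filter of 2, 659 with weights, 36 with voom, and 31 to 136 with a library left out.

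Members called in old mice with running (0) were 3 with weights and 0 to 1 with a library left out, and in young mice (0) 4 with weights. In the averaged running model (2) they were 1 without the trend, 4 with the filter of 2, 17 with weights, 1 with centring, 1 without a filter, and 1 to 9 with a library left out, the highest without young control library Yc5. Of 82 results on single members, Mrpl15 in old mice changed sign with the length trend removed (-0.0356) and ranged from -0.0504 to 0.226 with a library left out, and Mrpl55 from -0.0423 to 0.242. The cause was not tested. The numbered runners did not deviate together (correlations -0.24, 0.0924, -0.398 and -0.0441), and the replicate block gave 0 genes in runners with age, against 2, and 0 members.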

Other observations

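Other lists gave these values. In the averaged model of running, 5 of 77 cytosolic ribosomal protein genes were called lower and 0 higher in runners by limma, with a median log2 difference of -0.20; over all genes 4.85% were called lower and 5.07% higher. Of 79 nuclear oxidative phosphorylation genes 1 was called higher, Sdha of complex II, and 2 lower, Cox7b of complex IV and Atp5l of ATP synthase, with a median of -0.04. Of 9 genes of mitochondrial DNA transcription and replication 1 was called, Lonp1, the matrix protease, higher by 0.47 (limma adjusted p = 0.0330). Of 9 regulators of mitochondrial biogenesis 0 were called. Over all genes 9.92% were called.

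With age, all 10 mitochondrially encoded protein genes tested had lower means in old controls than in young controls (median -0.43). The same held for old runners against young runners (median -0.24), with 0 called by limma in either comparison. Over all genes 49.3% and 51.3% were higher in the old. The 10 genes share libraries, so they are not 10 separate observations. A single library in each young group stood high in mitochondrial reads. Yc5 had 1.94% (other young controls 0.728 to 1.07, old controls 0.666 to 0.938). Y1ex had 2.07% (other young runners 0.705 to 1.005, old runners 0.639 to 0.885). The directions without these libraries were not tested.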
